A study of Mus musculus with 10 samples.

Results

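The 5 miRNAs described here are encoded around Meg3 and Rian, in the part of the imprinted Dlk1-Dio3 domain of mouse chromosome 12 that lies outside its Rtl1-antisense cluster and its cluster from miR-379 to miR-410. They were chosen by position and name, with earlier results of these data known. Of 8 hairpin names searched (miR-770, miR-673, miR-493, miR-337, miR-540, miR-665, miR-341 and miR-370), 5 had a row in the deposited table, 1 row each, out of 285 mature miRNAs. These were miR-337-5p, miR-540-3p, miR-665, miR-341 and miR-370. The other 3 names were not analysed here.

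The libraries were small RNA sequencing of liver from 14-week-old mice. In 5 animals Tsc1 had been knocked out in the liver (labelled L-Tsc1KO, here Tsc1 mutant), and 5 littermates served as controls. Tsc1 encodes a subunit of the TSC complex, which restrains mTORC1, a kinase complex that promotes growth. The promoter behind the deletion, the strain and the sex were not given in the sources used here, and the targeted gene was not measured by these miRNA libraries. Values are normalised reads, that is, miRNA reads divided by 1 factor per library.

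Dlk1-Dio3 is a domain in which the 2 parental chromosomes are used differently. The maternal chromosome expresses the long noncoding RNAs Meg3, Rian and Mirg together with a large set of miRNAs, and the paternal chromosome expresses the protein-coding genes Dlk1, Rtl1 and Dio3. A mature miRNA guides Argonaute to messenger RNAs mainly through its seed, bases 2 to 8, so miRNAs with different seeds are expected to bind different sites. These miRNAs are abundant in embryo, placenta and brain and low in most adult tissues, liver included. For miR-370, repression of Cpt1a, the carrier enzyme of mitochondrial fatty acid oxidation, has been described in liver cells.

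The mature sequences of these 5 miRNAs differ, although their hairpins are neighbours. They are printed 5′ to 3′ from RefSeq (GRCm38.p6), with the seed in capitals. The deposited table gives an arm for miR-337-5p and miR-540-3p and none for the other 3, so both arms are shown for those. Which arm was counted there is not given in the sources used here.
miR-337-5p: cGGCGUCAugcaggaguugauu
miR-540-3p: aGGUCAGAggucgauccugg
miR-665-5p: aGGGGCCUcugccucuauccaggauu
miR-665-3p: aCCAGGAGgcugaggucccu
miR-341-5p: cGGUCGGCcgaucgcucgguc
miR-341-3p: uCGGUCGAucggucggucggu
miR-370-5p: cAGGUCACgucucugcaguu
miR-370-3p: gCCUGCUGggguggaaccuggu
No 2 of these 8 sequences share a whole seed. A run of 6 bases, AGGUCA, reaches over most of the seeds of miR-370-5p and miR-540-3p, offset by 1 base. The longest run of bases common to 2 different hairpins was 8, GGUCGAUC, in miR-341-3p and miR-540-3p. In miR-341-3p the bases CGGU occur 4 times, and the sequence is largely that repeat. Among the other miRNAs of the table with a RefSeq sequence, 1 shares a seed with any of the 8, which is miR-1193-3p of the cluster from miR-379 to miR-410, with the seed of miR-370-5p. Their G and C content ran from 54.5% in miR-337-5p to 76.2% in miR-341-5p. The median was 47.8% over the 239 miRNAs of the table with a sequence, with arms averaged where none is named. Among RefSeq mature miRNAs, 44.8% were at or above the content of miR-337-5p and 2.03% at or above that of miR-341-5p.

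The hairpins lie in 2 places on the plus strand of chromosome 12, and their RefSeq sequences are shown with the named arm, or both arms where none is named, in capitals. In the first place are Mir337 (chr12:109585789-109585885), Mir540 (chr12:109586080-109586146) and Mir665 (chr12:109586314-109586407), which together span 619 bases.
Mir337: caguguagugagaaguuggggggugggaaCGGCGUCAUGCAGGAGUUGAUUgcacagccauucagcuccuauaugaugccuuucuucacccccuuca
Mir540: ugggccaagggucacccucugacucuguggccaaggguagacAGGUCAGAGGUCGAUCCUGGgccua
Mir665: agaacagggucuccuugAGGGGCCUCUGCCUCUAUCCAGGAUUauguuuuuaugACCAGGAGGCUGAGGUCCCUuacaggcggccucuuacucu
In GENCODE M21 (GRCm38) this group lies outside Meg3 and Rtl1, with Mir337 starting 14.1 kb past the end of Meg3. The RefSeq span of Rtl1 (chr12:109564900-109604418) includes all 3, on the opposite strand. Mir3544, a hairpin annotated on the minus strand, overlaps Mir337, and whether reads were counted by strand is not given in the sources used here.

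The other place is Rian, 25092 bases further on. Mir341 (chr12:109611500-109611595) and Mir370 (chr12:109618258-109618336) both lie in introns of Rian, on its strand.
Mir341: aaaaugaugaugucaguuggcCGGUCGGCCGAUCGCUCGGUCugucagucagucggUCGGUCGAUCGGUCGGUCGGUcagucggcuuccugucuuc
Mir370: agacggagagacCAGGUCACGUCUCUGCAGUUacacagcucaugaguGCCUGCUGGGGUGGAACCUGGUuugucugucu

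Libraries held between 6228497 and 12129069 miRNA reads, recovered from the steps of the deposited values, and miR-122, the main hepatocyte miRNA, took 22.8 to 37.8% of them. Some libraries stood apart from others of their genotype. The share of miRNAs lying over 1 log2 unit from the median of the other 4 libraries was 28.8% in control replicate 1, 14.0% in control replicate 2 and 16.8% in mutant replicate 1, and at most 7.02% in the rest. Control replicate 2 also had the highest sums of biliary epithelial miRNAs (35789 normalised reads, against at most 6088 in the other controls) and of striated muscle miRNAs (5638 against at most 559). All fits below were repeated without these libraries. Nothing in the labels ties a library to a pool or a batch. Library numbers run in separate blocks for controls and for mutants. Any difference in handling that follows these numbers cannot be told apart from genotype. The p-values measure only the spread between these 10 samples.

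All 5 miRNAs were higher in Tsc1 mutant liver. They rose between 3.43-fold (miR-370) and 7.99-fold (miR-665) in a limma model, and for each of them the lowest mutant exceeded the highest control. Over all 285 miRNAs, 10.9% rose by the same test and 2.11% fell, while 10.2% had every mutant above every control and 2.46% had every mutant below. Most of those that rose belong to this domain. Outside it 3 of 254 rose and 6 fell, and 3 had every mutant above every control. The median log2 fold change was 2.62 over the 5 and -0.06 over all miRNAs tested. In bulk liver, a change in the share of cells that express these miRNAs and a change of their level per cell cannot be told apart. The filter behind the deposited list is not given in the sources used here. In controls, miR-665 and miR-540-3p averaged only 5.64 and 6.21 normalised reads, so they may be listed only through their mutant values. This was not tested.

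The most abundant of them was miR-337-5p, of the group between Meg3 and Rian. Its levels in control replicates 1 to 5 were 23.2, 54.7, 42.2, 89.2 and 39.0 normalised reads, and in mutant replicates 1 to 5 they were 187, 385, 304, 384 and 215. The lowest mutant, replicate 1, was 2.10 times the highest control, replicate 4. Controls averaged 49.7 ± 24.8 and mutants 295 ± 92.5 (SD, n = 5 each). On the log2(value + 1) scale this was a change of 2.62 ± 0.35 (SE; limma adjusted p = 0.000216). By mean level it moved from place 203 to place 151 of the 285 miRNAs.

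Its neighbour miR-540-3p was measured at far fewer reads. Control libraries had 6.39, 11.4, 5.17, 5.05 and 3.08 normalised reads, which stood for 3 to 16 sequenced reads. Mutant libraries had 25.2, 54.3, 52.6, 38.7 and 32.8 normalised reads, or 27 to 64 sequenced reads. Here too the lowest mutant was replicate 1, at 2.22 times the highest control, replicate 2. The means of 6.21 ± 3.12 and 40.7 ± 12.6 (SD, n = 5 each) gave a log2 change of 2.57 ± 0.33 (SE; limma adjusted p = 0.000172).

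The third of this group, miR-665, was the lowest of the 5 in controls. It was at 4.00, 9.95, 1.72, 8.41 and 4.10 normalised reads there, from 2 to 14 sequenced reads. The 2 reads of control replicate 3 have an exact 95% Poisson interval of 0.242 to 7.22 reads, for counting error only. In mutants the values were 38.2, 53.5, 55.7, 54.5 and 33.8 normalised reads, a narrower group in which replicates 1 and 5 were low. The log2 fold change was 3.00 ± 0.38 (SE; limma adjusted p = 0.000140), and only 1 of the 285 miRNAs had a higher one. Because of the added 1, this scale understates changes at such levels. With 0.5 added the value was 3.13, and with 5 added it was 2.33. Without control replicate 3 it was 2.72.

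Encoded in an intron of Rian, miR-341 was also higher in mutants. Its controls were at 39.2, 32, 25, 11.8 and 22.6 normalised reads, and its mutants at 236, 168, 219, 165 and 127.1. The order of libraries was unlike that of miR-337-5p: replicate 1 was the highest of its genotype for miR-341 and the lowest for miR-337-5p, in controls and in mutants. Means were 26.1 ± 10.3 and 183 ± 44.2 (SD, n = 5 each). The log2 change was 2.83 ± 0.31 (SE; limma adjusted p = 5.96e-05).

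The estimated change was lowest among the 5 for miR-370, whose hairpin follows that of miR-341. Control libraries had 14.4, 14.9, 9.48, 5.05 and 8.21 normalised reads, and mutant libraries 40.8, 34.0, 56.8, 24.4 and 30.8. The lowest mutant, replicate 4, was 1.63 times the highest control, replicate 2. From means of 10.4 ± 4.20 and 37.3 ± 12.4 (SD, n = 5 each), the log2 change came to 1.78 ± 0.33 (SE; limma adjusted p = 0.00235). Of the 31 miRNAs of the whole domain in the table, 26 had a higher fold change.

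**Figure D1:**
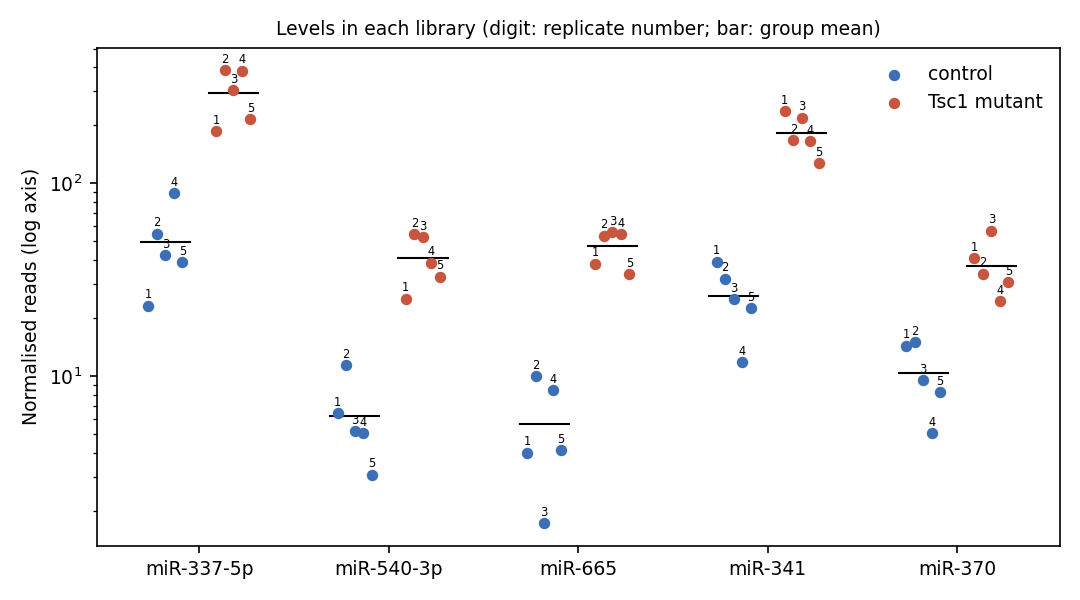
Normalised reads (log axis) of the 5 miRNAs in each of the 10 libraries, blue for control and red for Tsc1 mutant, with replicate numbers beside the points and a bar at each group mean. All 5 mutant points lie above all 5 control points for each miRNA, with the narrowest gap for miR-370.

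Counting error was a large part of the spread for the scarce members. In controls the coefficient of variation was 60.6% for miR-665 and 50.2% for miR-540-3p, where the mean number of reads alone would give 40.8% and 37.3%. For miR-337-5p, at more reads, it was 49.9% against 14.3% from counting. Every member had at least 2 reads in every library, and none was at 0.

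By level, the order in controls was miR-337-5p, miR-341, miR-370, miR-540-3p and miR-665. Each mature miRNA is read as a whole molecule, so no length scaling was needed, although molecules can differ in how well they enter a library. Neighbours in this order were not all distinct: miR-337-5p exceeded miR-341 in 4 of 5 controls, miR-370 exceeded miR-540-3p in 4 of 5 and miR-540-3p exceeded miR-665 in 3 of 5, while miR-341 exceeded miR-370 in 5 of 5. In mutants miR-370 took the last place, behind miR-665 and miR-540-3p, with mean levels of 37.3, 47.1 and 40.7 normalised reads. There miR-665 exceeded miR-540-3p in 4 of 5 libraries and miR-540-3p exceeded miR-370 in 3 of 5.

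Summed, the 5 miRNAs stood at 10.4 ± 2.63 RPM, reads scaled to a common total of miRNA reads, in the controls and at 65.5 ± 12.6 RPM in the mutants (SD, n = 5 each). The lowest control was replicate 5, with 7.89 RPM (exact 95% binomial interval 6.20 to 9.88), and the highest mutant replicate 3, with 76.0 (70.3 to 82.1). Their summed normalised reads ranged from 77.0 to 123 in controls and from 440 to 695 in mutants. Within the reads of the whole domain their part was 2.60 ± 0.39% in controls and 2.58 ± 0.28% in mutants. A sum over members chosen with earlier results known is given here without a test.

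The make-up of these reads differed between libraries more than between genotypes for the 2 leading members. In control libraries miR-337-5p gave 26.6 to 74.6% of the reads of the 5 and in mutants 35.4 to 57.6%. Its lowest share was in replicate 1 and its highest in replicate 4 of either genotype. The share of miR-341 ran the other way, at 45.0% and 44.8% in the 2 libraries numbered 1 and at 9.86% and 24.7% in those numbered 4, with mutant replicate 2 at 24.2%. The libraries numbered 1 were, with control replicate 2, those that stood apart over the whole table, and those numbered 4 were the shallowest of their genotypes, at 6228497 and 6489735 reads. Whether these properties bear on the make-up was not tested.

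**Figure D2:**
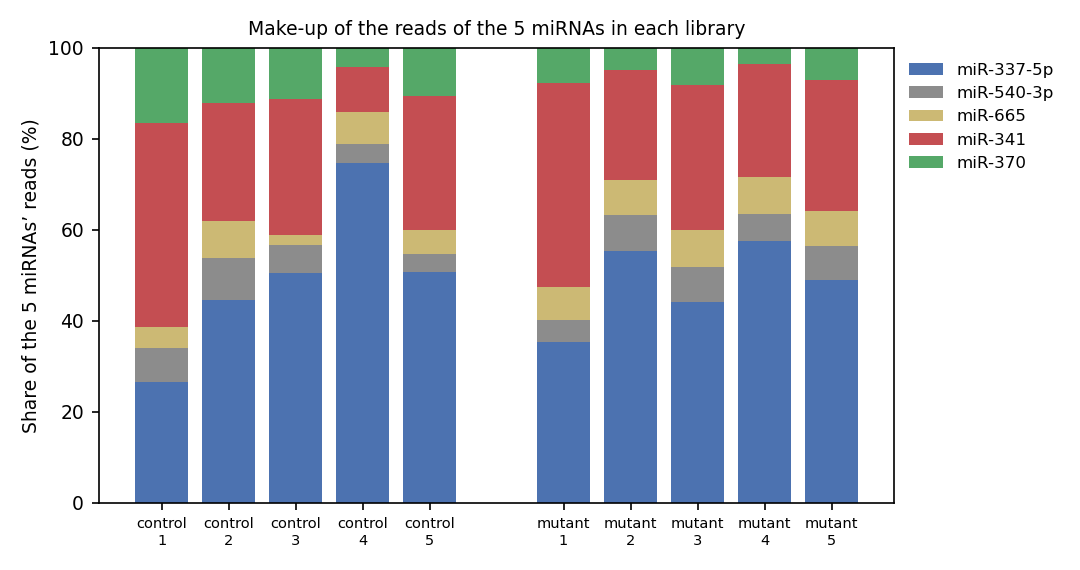
Stacked bars give, for each library, the percentage of the reads of the 5 miRNAs that belong to each of them. The share of miR-337-5p is lowest in control 1 and mutant 1 (26.6 and 35.4%) and highest in control 4 and mutant 4 (74.6 and 57.6%), and that of miR-370 is smaller in mutants on average (6.31 against 11%).

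Whether the members rose by the same factor was asked with log2 ratios of 2 miRNAs within each library, which the scaling between libraries does not touch beyond the added 1. The 10 pairs of members were compared between genotypes, and each member was also set against miR-127 and miR-541, the most abundant miRNAs of the Rtl1-antisense cluster and of the cluster from miR-379 to miR-410. This made 20 exact permutation tests over 252 splits, with a smallest possible p of 0.00794. After adjustment over the 20, 0 passed an adjusted p of 0.05 and 3 had an unadjusted p below 0.05. A lone pair cannot pass here, since the smallest p adjusts to 0.159.

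Of the 20 ratios, 1 did not overlap between genotypes, that of the 2 miRNAs of the Rian introns. Among all 465 pairs of miRNAs of the domain 7.31% did not overlap, so 1 of 20 is no more than that background. In controls miR-341 had 2.72, 2.14, 2.64, 2.33 and 2.75 times the reads of miR-370, a narrow range. In mutants it had 5.79, 4.95, 3.85, 6.76 and 4.13 times its reads, so that all 5 mutants lay above all 5 controls. The log2 ratio averaged 1.24 ± 0.16 over the controls and 2.28 ± 0.33 over the mutants (SD, n = 5 each). Their difference of 1.05 ± 0.16 (SE) had a 2-sided exact permutation p of 0.00794 (adjusted p = 0.159), so it did not pass the adjustment. The ratios rest on few reads of miR-370, 61 over all controls and 189 over all mutants.

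**Figure D3:**
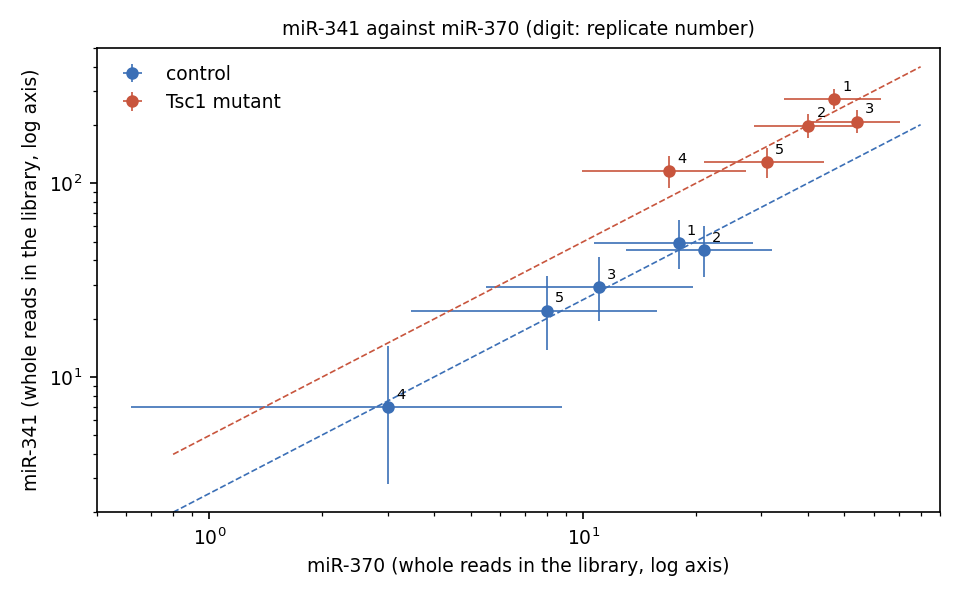
Sequenced reads of miR-341 against those of miR-370 in each library, both on log axes, with exact 95% Poisson intervals as bars and replicate numbers beside the points. Dashed lines mark the geometric mean ratio of each genotype, 2.51 in controls and 4.99 in mutants, and each mutant point lies above the control line.

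The other 5 ratios with miR-370 pointed the same way, with a smaller difference for miR-370 than for its partner. The difference in log2 ratio was 1.22 ± 0.51 (SE) for miR-665 to miR-370 (exact permutation p = 0.0476, adjusted p = 0.222) and 0.79 ± 0.33 for miR-540-3p to miR-370 (exact permutation p = 0.0556, adjusted p = 0.222). For miR-337-5p to miR-370 it was 0.84 ± 0.62, with an exact permutation p of 0.183. That value depended on single libraries, at 0.48 without control replicate 1 and 1.29 without control replicate 4 (exact permutation p = 0.0159, adjusted p = 0.0635). Set against the neighbouring clusters, the difference for miR-370 to miR-127 was -0.84 ± 0.38 (exact permutation p = 0.0556) and for miR-370 to miR-541 -0.77 ± 0.42 (exact permutation p = 0.111). These 6 ratios share the values of miR-370 and are not separate results.

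Without miR-370, the remaining 14 ratios differed between genotypes by at most 0.45 on the log2 scale. The largest was miR-665 to miR-541, at 0.45 ± 0.25 (SE; exact permutation p = 0.0397, adjusted p = 0.222). Without control replicate 3, which had 2 reads of miR-665, it was 0.22 (exact permutation p = 0.0794), and with 5 added in place of 1 it was at -0.21. The difference for miR-337-5p to miR-127 was -0.0008, with a 95% interval of -0.76 to 0.76, and for miR-341 to miR-127 it was 0.21 (-0.66 to 1.07). Both intervals are wide, so these members are not shown to have risen alike.

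Of the rest of the domain, 23 of 26 miRNAs rose, and log2 changes ran from 1.28 to 3.13 around a median of 2.55. None of the 26 was lower at an unadjusted p below 0.05, by limma or by its voom variant. In the Rtl1-antisense cluster, between the 2 places described here, 5 of 5 rose. Its main product miR-127, which matches the Rtl1 messenger RNA perfectly, was at 2.62 ± 0.23 (SE; limma adjusted p = 1.37e-05), and miR-433 was its lowest at 1.70. In the cluster from miR-379 to miR-410, 18 of 21 rose, miR-541 by 2.55 ± 0.25 (SE; limma adjusted p = 2.72e-05). Among those that rose, miR-377 and miR-496 averaged only 2.69 and 3.57 normalised reads in controls. They reached the minimum mean of 5 over all libraries through their mutant values. The seed partner of miR-370-5p, miR-1193-3p, was at 2.32 ± 0.41 (SE; limma adjusted p = 0.00195), from 14.8 ± 8.98 to 70.8 ± 23.1 normalised reads (SD, n = 5 each).

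**Figure D4:**
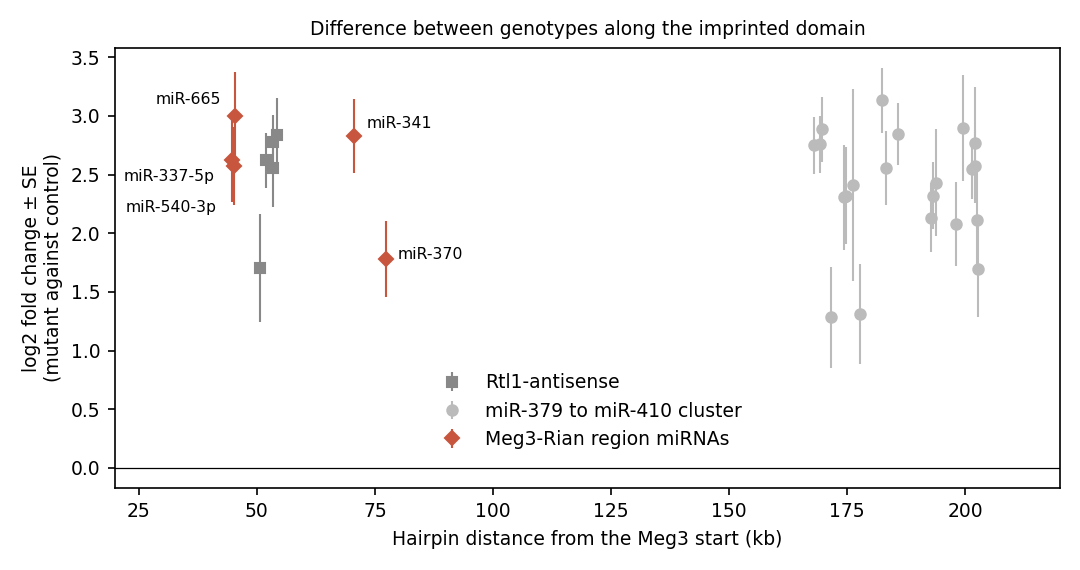
Log2 fold change (mutant against control) with its SE for each miRNA of the domain, placed by the distance of its hairpin from the Meg3 start in kb. The Meg3-Rian region miRNAs (red) lie at 44.8 to 77.3 kb and between 1.78 and 3.00, within the range of 1.28 to 3.13 of the other clusters.

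The miRNAs most alike to each member in profile over the 10 libraries all came from the neighbouring clusters. Likeness was measured as the root-mean-square difference between log2 profiles after each was centred on its own mean, so a shared difference between genotypes is part of it. Of the 15 nearest, 3 for each member, 13 belonged to the cluster from miR-379 to miR-410 and 2 to the Rtl1-antisense cluster. None was another of the 5. The neighbouring clusters hold 26 miRNAs against 5 members, so by number alone few of the nearest would be members. The closest pair was miR-337-5p and miR-434-3p, at 0.18 log2 units, followed for miR-337-5p by miR-379 at 0.34 and miR-411 at 0.34. For miR-665 the nearest were miR-376b at 0.22, miR-381 at 0.27 and miR-434-5p at 0.32. For miR-540-3p they were miR-409-3p at 0.33, miR-382 at 0.35 and miR-134 at 0.36.

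The Rian pair had looser matches. For miR-341 the nearest were miR-299 at 0.34, miR-300 at 0.41 and miR-134 at 0.44, and for miR-370 they were miR-134 at 0.47, miR-495 at 0.55 and miR-382 at 0.56. The difference between miR-341 and miR-370 themselves was 0.57, so each was among the 7 nearest of the other. Though their hairpins are close, miR-337-5p and miR-540-3p were 0.58 apart. That distance includes the counting error of miR-540-3p, which had 3 to 16 reads in controls. The median difference to all other miRNAs lay between 1.09 (miR-370) and 1.68 (miR-665).

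**Figure D5:**
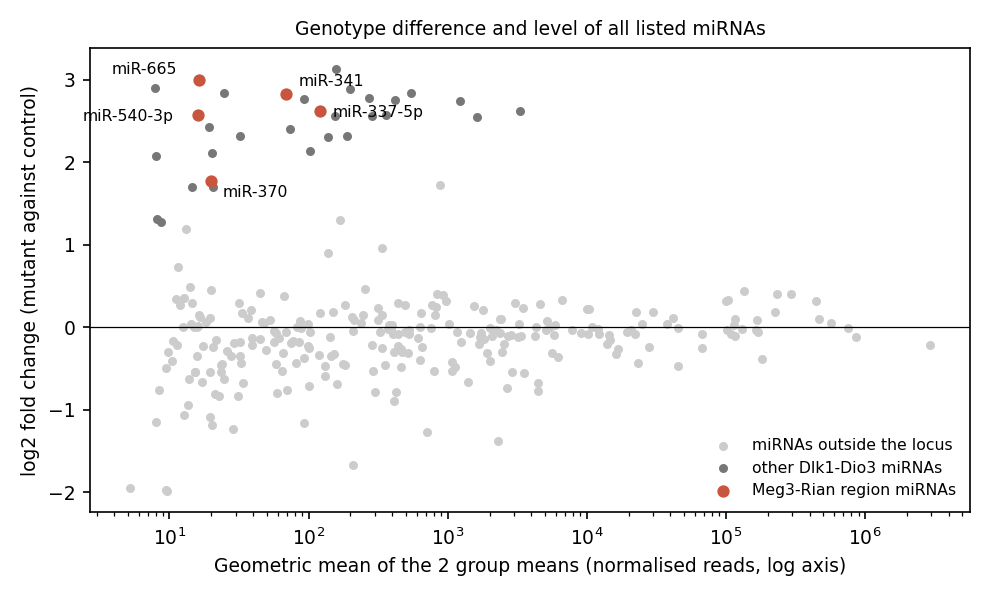
Log2 fold change of all 285 miRNAs against the geometric mean of their 2 group means (normalised reads, log axis), with the Meg3-Rian region miRNAs in red, the other Dlk1-Dio3 miRNAs in dark grey and all others in light grey. The red points sit at low levels and at 1.78 to 3.00, where the median of the miRNAs outside the locus is -0.09.

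Few miRNAs outside the domain were called by the same test, where 3 of 254 rose and 6 fell. Of 34 miRNAs in 9 lists of cell type markers, 0 rose and 0 fell by limma (Benjamini-Hochberg), and voom gave the same counts. Counts of 0 are near that share, so they say little about the markers themselves. At an unadjusted p below 0.05, 0 were higher and 4 lower (miR-133a, miR-150, miR-7a and miR-9), and by voom 1 was lower. The 5 hepatocyte miRNAs had a median log2 change of -0.01, and their sum lay between 3740365 and 5658437 normalised reads in controls and between 4128307 and 4765677 in mutants. Neural miRNAs, of interest because the domain is active in brain, had a median of -0.43 over the 3 listed ones in the table. These summed to 742 to 1883 normalised reads in controls and 579 to 1223 in mutants, with miR-124 and miR-138 not analysed here. The list is not complete for brain: miR-137, outside it, rose by 0.90 ± 0.26 log2 units (SE, limma adjusted p = 0.0395). The sums of the striated muscle list were 268 to 5638 in controls and 151 to 919 in mutants, and no listed marker was at 0 in any library. Without control replicate 2 the log2 fold changes of the 5 miRNAs were 2.69 for miR-337-5p, 2.79 for miR-540-3p, 3.22 for miR-665, 2.92 for miR-341 and 1.92 for miR-370.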

How the data were processed

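The deposited values are a normalised signal: the authors scaled reads per mature miRNA by 1 factor per library, and the submitters' processing notes name DESeq, with no version. Aligner, miRNA annotation, genome build and filters were not given in the sources used here. Columns were matched to samples by library number. Each value was a whole multiple of 1 step per library (100% within 0.001), which gave whole reads. Reads lack molecular identifiers, so intervals cover counting error only. No 2 libraries of a genotype agreed within sampling noise (0 of 20 pairs, chi-square test).

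All 285 miRNAs passed a mean of at least 5 normalised reads and were fitted as log2(value + 1) with limma 3.58.1 in R 4.3.3 (genotype, intensity trend, Benjamini-Hochberg adjustment over all, threshold 0.05). The fit was tested on simulated data. Ratios used exact permutation tests. The design counted 14 ratios for 4 members. The search also found miR-540-3p, which made 20. The miRNAs named are the members, the most abundant miRNA of each neighbouring cluster, the 3 nearest profiles per member and seed partners. Other single names were chosen after their values were seen. Members and lists were chosen with earlier results of these data known. Sequences came from RefSeq, hairpin sites from RefSeq and GENCODE M21. All 5 members matched. Alternatives covered the pseudocount, filter, scaling, test, replicate block, GC content and left-out libraries. Figures used matplotlib 3.10.9.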

Additional observations from a re-analysis of the deposited data

Results flagged for a closer look

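In 4 of 52 groups of 5 values, 1 library lay far from the other 4, judged by the gap to its nearest neighbour relative to the range. Chance gives about 2.6 such groups, and the ratios share values. All 4 were log2 ratios. Mutant replicate 1 was low for miR-540-3p to miR-341 at -3.18, where the next was -2.06, and for miR-337-5p to miR-541 at -4.37, where the next was -3.72. It was also low for miR-665 to miR-127 at -7.98, where the next was -7.31. Control replicate 3, with 2 reads of miR-665, was low for miR-665 to miR-541 at -7.74, where the next was -6.62.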

How the results depend on the processing

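All 5 members kept their direction and stayed past the threshold in all 122 alternative fits run for them. Their log2 fold changes lay between 1.46 and 3.28, with limma adjusted p up to 0.00819. The fits without a filter repeat the main fit, since all 285 miRNAs had passed it. A minimum mean of 50 left out miR-540-3p, miR-665 and miR-370. There 19 miRNAs rose, 3 fell and 15 of the neighbouring clusters rose, with fewer tested. The mean is taken over both genotypes. At control means of 49.7 and 26.1, miR-337-5p and miR-341 were kept only through their mutant values, so this filter is no independent check of them. The number that fell, 6 with all libraries, ranged from 2 to 10 when 1 library was left out (10 when it was control replicate 1, 3 for control replicates 3 and 5, and 2 for mutant replicate 4). It was 11 without both libraries numbered 1, and 13 without these and control replicate 2. The cause was not tested. Same-numbered libraries correlated in their deviations between -0.02 and 0.81, so the numbers were not taken as pairs. With the replicate block 10 fell and 35 rose, miR-370 kept its call (limma adjusted p = 0.00151), and only the controls numbered 1 and 4 correlated best with the mutant of their own number. The slope on GC content was fitted on 239 miRNAs (83.9%), using the mean of the arms where none is named. It left miR-370 at 1.92 and miR-341 at 3.08. Adding the replicate block cannot move these values, only their errors, since each number has 1 control and 1 mutant. The test with edgeR was not run, and limma's voom on whole reads, added after the data were seen, took its place. With it miR-370 was at 1.84 and 31 rose.

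Scaled to the reads other than miR-122, the sum of the 5 was 15.5 RPM in controls and 92.9 RPM in mutants. The difference in log2 ratio for miR-341 to miR-370 stayed between 0.94 and 1.18 in all 14 alternatives run, with adjusted exact permutation p from 0.0635 to 0.286. Several ratio differences, up to 0.45 in size, changed sign, and none of them passed the threshold in either direction. With 0.5 added, miR-337-5p to miR-540-3p was at -0.039, miR-337-5p to miR-127 at 0.013 and miR-540-3p to miR-127 at 0.053. With 5 added, which lowers the ratios of scarce miRNAs, miR-337-5p to miR-665 was at 0.18, miR-665 to miR-341 at -0.31, miR-337-5p to miR-541 at -0.027, miR-540-3p to miR-541 at -0.52, miR-665 to miR-127 at -0.29 and miR-665 to miR-541 at -0.21. Without both libraries numbered 1, miR-337-5p to miR-540-3p was at -0.23, miR-337-5p to miR-127 at 0.12 and miR-540-3p to miR-127 at 0.34. Leaving out 1 library gave ranges of -0.22 to 0.33 for miR-337-5p to miR-540-3p, -0.61 to 0.28 for miR-337-5p to miR-341, -0.12 to 0.59 for miR-665 to miR-341, -0.11 to 0.23 for miR-337-5p to miR-127, -0.056 to 0.23 for miR-337-5p to miR-541, -0.20 to 0.19 for miR-540-3p to miR-127, -0.11 to 0.19 for miR-540-3p to miR-541, -0.071 to 0.50 for miR-341 to miR-127 and -0.060 to 0.55 for miR-341 to miR-541. The cause was not tested. Depth limits the scarce members most, with 30 reads of miR-665 and 36 of miR-540-3p over all controls.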
